A study of Homo sapiens with 25 samples.

Results

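Distal regions acetylated at lysine 27 of histone H3 (H3K27ac) in human embryonic stem cells, and in no later stage of their differentiation, numbered 6007 of 263649 distal H3K27ac regions, or 2.28%. The peaks of all 8 H3K27ac libraries were pooled and merged, and a merged region was distal when it lay over 2 kb from every annotated gene start and end on chromosomes 1 to 22 and X. A region was kept when it overlapped a peak in both stem cell lists and in none of the 6 lists of later stages. All cells derive from H1, a long-established line of human embryonic stem cells, abbreviated hESC. Its differentiation passes through definitive endoderm (hDE), which gives rise to gut and its organs, then anterior foregut endoderm (hAFE), and ends at the endoderm of the pharyngeal foregut (hPFE). All groups came from this 1 line, and the labels give no genetic change and no growth factor, dose or day for a stage. H3K27ac had 2 libraries per stage. H3K4me2 had 2 hESC, 2 hDE, 1 hAFE and 1 hPFE library, and H3K27me3 had 2 hESC, 2 hDE, 1 hAFE and 2 hPFE libraries.

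Enhancers are stretches of DNA that raise transcription of a gene, often over a long distance. H3K27ac marks enhancers and promoters in use, and H3K4me2 marks both kinds of element when they are open, whether or not they are in use. H3K27me3 is laid down by Polycomb repressive complex 2 and marks silenced developmental genes. In pluripotent cells the factors OCT4 (gene POU5F1), SOX2 and NANOG bind together at many enhancers that lose their activity as the cells leave pluripotency.

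Per the labels, the hESC libraries of H3K27ac and H3K27me3 are re-analysed from an earlier deposit, so the origin of the libraries and the stage cannot be told apart for these 2 marks. The hESC H3K4me2 libraries carry no such label. H3K27ac lists held 24871 to 111256 peaks, with 75087 and 68306 in hESC, the fewest in the hAFE libraries (42100 and 24871) and the most in hDE (101186 and 111076) and in replicate 2 of hPFE (111256). The sequencing depth behind a list is unknown, so a missing peak does not show that a mark is absent, and in bulk cells fewer marked cells and less mark per cell cannot be told apart. At gene ends, 38 of 55 pluripotency genes had H3K27ac in both hESC libraries, 33 in both hDE, 18 in both hAFE and 23 in both hPFE libraries. Of 28 genes of definitive endoderm and primitive streak, 4 had it in both hESC and 23 in both hDE libraries. POU5F1 had it at a gene end in both hESC libraries and in none of the 6 later ones.

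H3K27ac chose these regions, so its values in them are a description. The stem-cell-only regions were 460 bp wide in the median (quartiles 334 and 683, range 180 to 4583 bp), against 482 bp in the 20474 regions of definitive endoderm only, 1518 bp in the 989 regions of every stage and 207 bp in all other distal regions. The authors' fold enrichment over input, a value of each peak's own list, had a median of 3.62 in hESC replicate 1 and 3.40 in replicate 2, with highest values of 14.9 and 11.6. These medians lay near that of all peaks of the same lists, 3.23 and 3.31. Just outside the rule lay 1404 distal regions with a peak in both hESC lists and in exactly 1 later list. The later peak was in hDE in 310 (replicate 1) and 382 (replicate 2) of these, in hAFE in 73 and 19, and in hPFE in 207 and 413. A further 55361 distal regions had a peak in 1 hESC list alone and in no later list. H3K4me2 in hESC covered 63.96% and 61.04% of the 1404 and 12.2% and 10.2% of the 55361. At the distance limit, 174 of the stem-cell-only regions lay between 2000 and 2500 bp from a gene end, and 208 regions with the same peaks lay between 1500 and 2000 bp.

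The promoters of 3 pluripotency genes with stem-cell-only regions nearby are shown. They were picked because H3K27ac in a short window at each start had the same pattern as the regions. The 250 bases before each annotated start are given here from RefSeq (GRCh38.p14). All 3 windows, taken with the 50 bases after the start, overlapped an H3K27ac peak in both hESC libraries and in none of the 6 later libraries. FOXD3 is a forkhead factor of pluripotent and neural crest cells, on the forward strand at chr1:63322317-63322566. FGF2, at chr4:122826581-122826830 on the forward strand, is a fibroblast growth factor used to maintain such cultures. SFRP2, a secreted WNT antagonist, lies on the reverse strand at chr4:153789084-153789333. Capitals mark matches to 4 motifs, the octamer ATGCAAAT, the SOX motif ACAATGG, the GATA motif AGATAA and the FOX motif TGTTTAC, searched on both strands.
FOXD3: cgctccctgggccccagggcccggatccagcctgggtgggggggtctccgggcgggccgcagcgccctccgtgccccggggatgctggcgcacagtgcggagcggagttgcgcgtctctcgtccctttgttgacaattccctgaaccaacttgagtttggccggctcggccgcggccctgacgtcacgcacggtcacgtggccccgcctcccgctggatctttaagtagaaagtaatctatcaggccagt
FGF2: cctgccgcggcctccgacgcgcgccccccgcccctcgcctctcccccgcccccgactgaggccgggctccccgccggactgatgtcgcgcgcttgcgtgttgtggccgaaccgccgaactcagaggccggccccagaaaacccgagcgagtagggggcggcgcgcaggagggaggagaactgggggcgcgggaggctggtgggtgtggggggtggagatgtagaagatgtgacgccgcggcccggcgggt
SFRP2: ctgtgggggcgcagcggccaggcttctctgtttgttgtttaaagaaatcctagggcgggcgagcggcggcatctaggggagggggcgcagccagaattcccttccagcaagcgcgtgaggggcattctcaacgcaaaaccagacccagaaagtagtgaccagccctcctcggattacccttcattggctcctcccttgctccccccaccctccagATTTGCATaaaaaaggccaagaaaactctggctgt
The SFRP2 window held 1 octamer, on the strand opposite to the one printed, beginning 35 bases before the start, and the windows of FOXD3 and FGF2 held none of the 4 motifs. Of 35116 promoter windows of the same length in the RefSeq table, 1.63% held the octamer, 2.62% the SOX, 9.17% the GATA and 2.98% the FOX motif on either strand. GC content was 67.6% in the FOXD3 window, 75.2% in FGF2 and 57.6% in SFRP2. The FOXD3 window overlapped an H3K27me3 peak in neither hESC library and in 4 of the 5 later ones, replicate 2 of hDE, hAFE and both hPFE libraries. The SFRP2 window did so in neither hESC library and in 3 of 5 later ones, hAFE and both of hPFE, and the FGF2 window in none of the 7. Within 1 kb of the FOXD3 ends, however, H3K27me3 was called in both hESC libraries and in every later one, so it was not new at this gene after hESC. H3K4me2 was called in the FOXD3 window in hESC replicate 2, both hDE libraries and hPFE. In the SFRP2 window it was called in the same libraries and in hAFE, and in the FGF2 window in hPFE alone. Within 1 kb of the FGF2 ends H3K4me2 was called in both hESC libraries, 1 of 2 hDE libraries, hAFE and hPFE. H3K27me3 was called there in hAFE and 1 of 2 hPFE libraries, and H3K27ac also in 1 of 2 hPFE libraries. A window of VSNL1 at chr2:17540446-17540695, not shown, also had H3K27ac in both hESC libraries and in none of the 6 later ones. It held none of the 4 motifs, with H3K27me3 in none of the 7 libraries and H3K4me2 in all 6.

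The stem-cell-only regions carried H3K4me2 in stem cells and seldom afterwards. An H3K4me2 peak overlapped 53.3% and 50.6% of them in the 2 hESC libraries, 6.01% and 6.73% in hDE, 5.61% in hAFE and 3.63% in hPFE. The 4 later libraries lay far below both hESC libraries, with no overlap. The share averaged 5.49% ± 1.33 in later libraries and 51.9% ± 1.97 in hESC libraries (SD, n = 4 and 2), a difference of -46.5 percentage points. The two-sided exact permutation test over libraries gave p = 0.133, the smallest that 4 against 2 libraries allow, and 0.356 after Benjamini-Hochberg adjustment over 8 tests, so it did not pass 0.05. Since the rule needs both hESC H3K27ac lists, the difference was -14.3 points when the regions were chosen without replicate 1 of hESC H3K27ac and -17.9 points without replicate 2. The H3K4me2 lists held 116210 and 99948 peaks in hESC and 87357 to 105065 in later libraries. Their peaks covered 50.7 and 50.97 Mb in hESC, 37.3 and 34.6 Mb in hDE, 35.3 Mb in hAFE and 36.1 Mb in hPFE, so the hESC lists covered more of the genome, and the part of this in the difference was not tested.

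**Figure D1:**
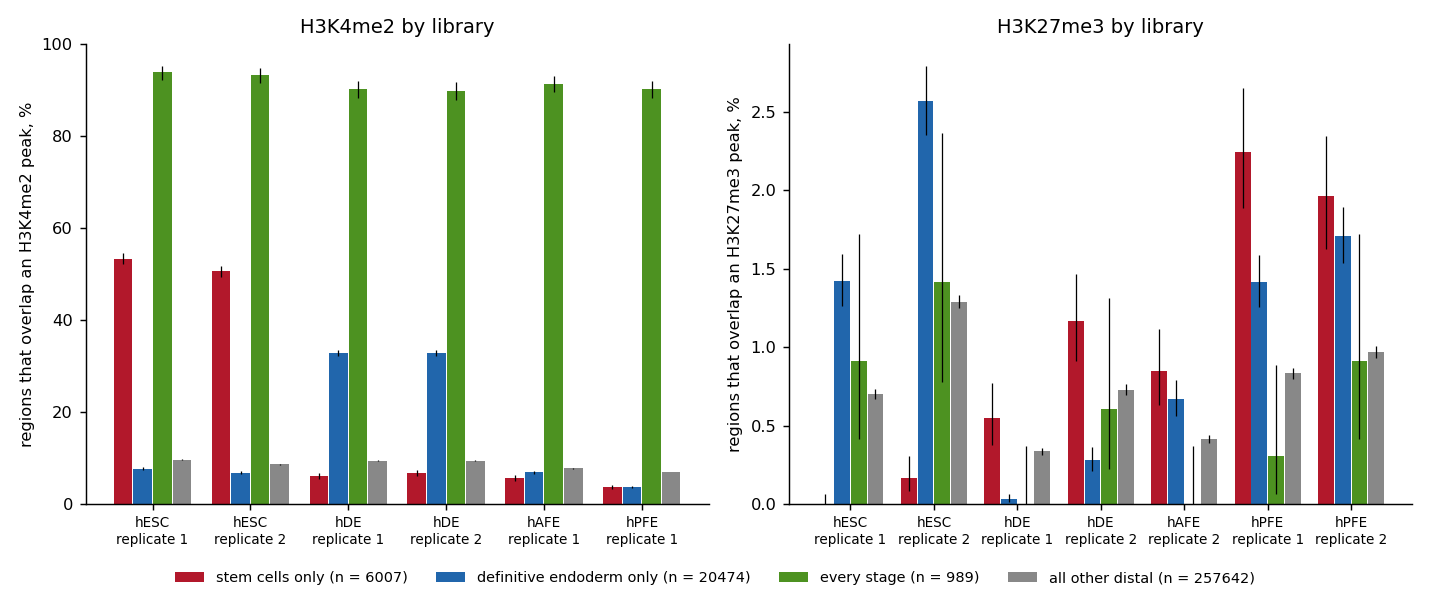
Share of distal regions (y axis, %) that overlap an H3K4me2 peak (left) or an H3K27me3 peak (right) in each library (x axis); bars are region sets and lines are exact 95% Clopper-Pearson intervals, which cover counting error only. Stem-cell-only regions stand at 53.3% and 50.6% for H3K4me2 in hESC and at 3.63 to 6.73% later, and at 0 and 0.166% for H3K27me3 in hESC and 0.549 to 2.25% later.

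Other distal regions did not follow this course. Their H3K4me2 share was 9.62% and 8.59% in hESC, 9.34% and 9.37% in hDE, 7.78% in hAFE and 6.94% in hPFE. Within each library the stem-cell-only regions stood 43.7 and 42.0 points above other distal regions in hESC, and below them later, by differences of -3.33 and -2.65 points in hDE, -2.17 in hAFE and -3.31 in hPFE. Over all 6 libraries the mean difference was 12.4 points (exact sign-flip permutation test, two-sided p = 0.5, adjusted p = 0.667, higher in 2 of 6 libraries). This mean pools hESC and later libraries, whose differences have opposite signs, so the test cannot judge the differences within a stage. Since most other distal regions rest on a peak in 1 list, the same shares were taken among the 57289 other distal regions with a peak in at least 2 H3K27ac lists, an alternative chosen after seeing the data. There H3K4me2 covered 21.98% and 20.5% in hESC, 28.6% and 29.2% in hDE, 21.8% in hAFE and 18.9% in hPFE, still below the stem-cell-only regions in hESC and above them later. Among regions of 300 to 700 bp alone, the shares were 49.2% and 47.1% in hESC and 5.44% and 6.01% in hDE for the stem-cell-only regions, and 15.8% and 14.4% in hESC and 16.2% and 16.5% in hDE for other distal regions.

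Definitive-endoderm-only regions, chosen by the same rule with hDE in place of hESC, were the mirror image at lower height. Their H3K4me2 share was 7.64% and 6.74% in hESC, 32.7% and 32.8% in hDE, 6.84% in hAFE and 3.61% in hPFE. Across the 6 libraries the stem-cell-only regions were 5.91 points higher (exact sign-flip permutation test, two-sided p = 0.719, adjusted p = 0.766, higher in 3 of 6 libraries). This mean likewise pools libraries whose differences have opposite signs. Regions of every stage carried H3K4me2 at 89.9% to 93.8% in all 6 libraries, and the stem-cell-only regions lay below them, with a mean difference of -70.5 points (p = 0.0313 by the same exact permutation test, the smallest 6 libraries allow; adjusted p = 0.25; lower in 6 of 6 libraries).

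Taken region by region, 2402 stem-cell-only regions (40.0%) had H3K4me2 in both hESC libraries, against 6.62% of all distal regions. A further 1437 had it in 1 hESC library (23.9%, background 6.92%) and 2168 in neither (36.1%, background 86.5%). No H3K4me2 library of any stage had a peak in 2052 (34.2%, background 73.1%). Of the 2402, 1965 (81.8%, exact 95% interval 80.2 to 83.3%, counting error only) had H3K4me2 in no hDE library, against 45.6% of all distal regions with H3K4me2 in both hESC libraries. Every hDE library still had it in 165 (6.87%, background 37.5%), the hAFE library in 246 (10.2%, background 41%) and the hPFE library in 167 (6.95%, background 37.2%). None of the 4 later libraries had it in 1793 (74.6%, background 35.5%). Gains in regions without H3K4me2 in stem cells were rare: of 2168, 5 had it in both hDE libraries (0.231%, background 2.73%), 40 in hAFE (1.85%, background 4.67%) and 23 in hPFE (1.06%, background 4.21%).

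The stronger a region's H3K27ac in stem cells, the more often H3K4me2 lay with it there. Ranked by the deposited −log10 p in the hESC lists, the strongest quartile overlapped H3K4me2 in 75.7% and 74.7% of regions in the 2 hESC libraries, the second in 57.9% and 55.3%, the third in 45.6% and 41.3% and the weakest in 34.1% and 31.0%. In later libraries the strongest quartile was at 5.66% to 10.9% and the weakest at 2.20% to 4.06%. Width ran along with strength, with medians of 781, 490, 408 and 346 bp in the same order. The narrowest quartile stood at 37.0% and 33.4% in hESC and the widest at 75.6% and 72.2%. Distance from genes went with a smaller relative difference in stem cells than afterwards. Regions 2 to 5 kb from a gene end had H3K4me2 in 10.1% and 11.2% in hDE, while those over 50 kb away had it in 3.75% and 4.35%; in hESC the same groups stood at 56.0% and 57.8%, and at 49.8% and 44.9%. These are descriptions of subsets of 1 set of regions, and strength, width and distance were not separated.

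**Figure D2:**
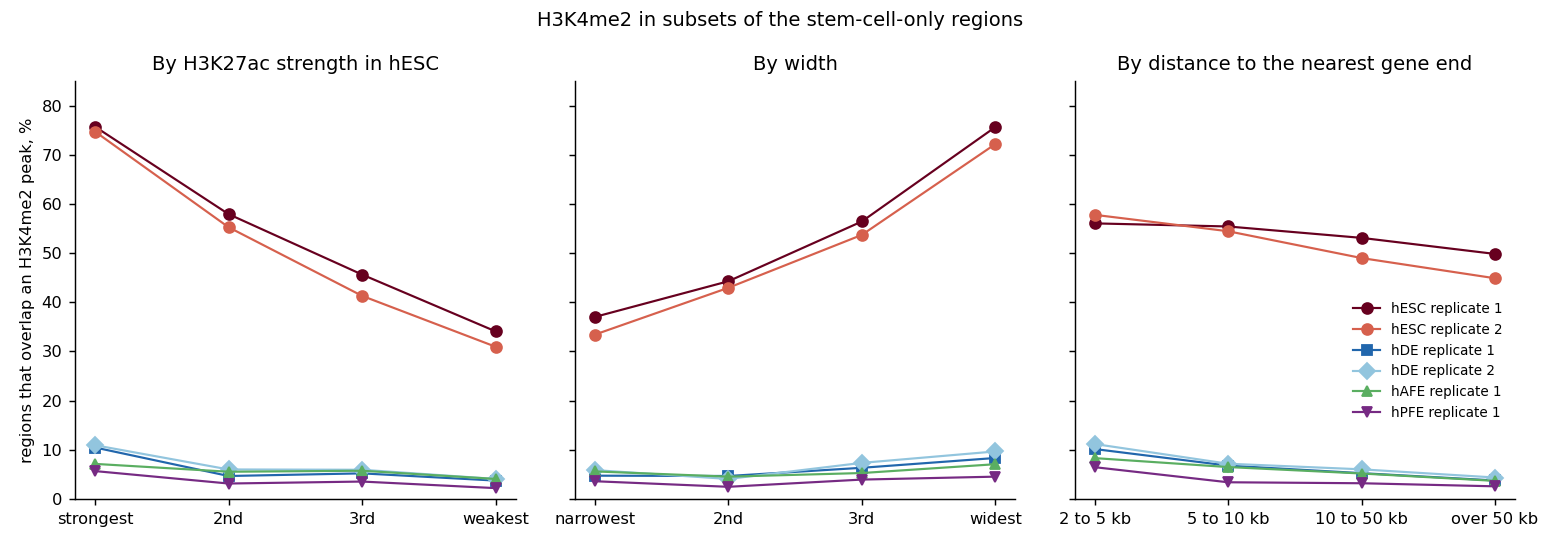
Share of stem-cell-only regions that overlap an H3K4me2 peak (y axis, %) by quartile of H3K27ac strength, by quartile of width and by distance to the nearest annotated gene end (x axes); each line is 1 library. In hESC the share is 75.7% and 74.7% in the strongest quartile and 34.1% and 31.0% in the weakest, while the later libraries stay at 11.2% or less.

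H3K27me3 was seldom called in the stem-cell-only regions, in stem cells or later. A peak overlapped 0% and 0.166% of them in the hESC libraries, 0.549% and 1.17% in hDE, 0.849% in hAFE and 2.25% and 1.96% in hPFE. With 0 of 6007 in replicate 1 of hESC, the exact interval allows up to 0.0614%. None had a peak in both hESC libraries, against 0.609% of all distal regions, and 10 had one in at least 1 (0.166%, background 1.34%). All 5 later libraries lay above both hESC libraries, with 1.36% ± 0.726 in later and 0.0832% ± 0.118 in hESC libraries (SD, n = 5 and 2). The difference of 1.27 points had an exact permutation p of 0.0952 (two-sided), the smallest that 5 against 2 libraries allow, and an adjusted p of 0.356. It was 0.425 points with regions chosen without replicate 1 of hESC H3K27ac and 0.476 points without replicate 2. The lists differed in length, with 27958 and 55027 peaks in hESC, 28200 and 65995 in hDE, 23457 in hAFE and 76441 and 66283 in hPFE, and the part of list length in the difference was not tested. Replicate 1 of hESC, hDE and hPFE carries the word millipore in its file name. Without those 3 libraries the difference was 1.16 points. In other distal regions the shares were 0.703% and 1.29% in hESC, 0.336% and 0.729% in hDE, 0.416% in hAFE and 0.833% and 0.970% in hPFE. Definitive-endoderm-only regions had few H3K27me3 peaks at their own stage and more after it, with 1.42% and 2.57% in hESC, 0.0293% and 0.278% in hDE, 0.669% in hAFE and 1.42% and 1.71% in hPFE, so a low share at the stage of H3K27ac and a higher one later was seen in both sets. Over the 7 libraries the stem-cell-only regions were 0.238 points above other distal regions (exact sign-flip permutation test, two-sided p = 0.5, adjusted p = 0.667, higher in 5 of 7), -0.164 points from the definitive-endoderm-only ones (p = 0.766, adjusted p = 0.766, lower in 2 of 7) and 0.399 points above those of every stage (p = 0.375, adjusted p = 0.667, higher in 5 of 7). None of these differences passed the test, and each pools hESC and later libraries of opposite sign.

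No H3K27me3 library had a peak in 5720 stem-cell-only regions (95.2%, background 96.4%). In all, 282 stem-cell-only regions (4.69%) had an H3K27me3 peak in at least 1 of the 5 later libraries, against 2.58% of all distal regions, and 9 (0.150%, background 0.0394%) had one in all 5. Both hDE libraries agreed on 23 (0.383%, background 0.212%), hAFE gave 51 (0.849%, background 0.426%), and both hPFE libraries agreed on 43 (0.716%, background 0.214%). H3K27me3 lay mostly in regions with H3K4me2 in stem cells. Of the 2402 with H3K4me2 in both hESC libraries, 41 had H3K27me3 in both hPFE libraries (1.71%, background 2.03%), against 1 of the 2168 with H3K4me2 in neither (0.0461%, background 0.0689%). In both hDE libraries the same groups had 21 (0.874%, background 1.6%) and 1 (0.0461%, background 0.103%). These shares were below those of all distal regions with the same H3K4me2, so this split was not particular to the stem-cell-only regions. In the 56 regions, nearest to 44 genes, with H3K27me3 in both hDE or both hPFE libraries, H3K4me2 was still present in 39.3% and 41.1% in the hDE libraries, 28.6% in hAFE and 19.6% in hPFE. They lay a median of 8718 bp from a gene end. Of stem-cell-only regions with H3K27me3 in every library of a stage, 30.4% in hDE, 27.5% in hAFE and 23.3% in hPFE had H3K4me2 in every library of that stage. For other distal regions with such H3K27me3 it was 35.1%, 28.4% and 33.1%, so this overlap was not particular to the stem-cell-only regions.

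Of the 44 genes nearest to these 56 regions, 3 had at least 3 of them. SP8, a zinc finger transcription factor, had 4 of them, CACNG8, an auxiliary subunit of AMPA receptors, 3, and FOXB1, a forkhead factor, 3. The strongest of those with H3K4me2 in both hESC libraries lay 2642 bp from ZIC5, a zinc finger factor of the early neural plate, at chr13:99974551-99975745. Its H3K27ac fold was 6.69 and 5.52 in hESC. H3K4me2 was enriched 7.90-fold and 7.96-fold there in the hESC libraries, with no peak in the 4 later ones. H3K27me3 was called in neither hESC library and in all 5 later libraries. A region inside LHX4, a LIM homeodomain factor of the pituitary, at chr1:180238438-180240861, behaved alike, with H3K4me2 folds of 9.34 and 8.11 in hESC, none later, and H3K27me3 in all 5 later libraries. At CACNG8 (chr19:53957467-53958396) H3K4me2 stayed in both hDE libraries, with folds of 2.82 and 3.32 there and 12.3 and 8.67 in hESC, and H3K27me3 was called in hDE replicate 2, hAFE and both hPFE libraries. Inside GNAS (chr20:58843205-58844309), an imprinted gene for the stimulatory G protein alpha subunit, H3K4me2 was in both hESC and both hDE libraries and H3K27me3 in hAFE and both hPFE ones. VSNL1 codes for a neuronal calcium sensor. The H3K4me2 peaks overlapping its region at chr2:17542180-17544030 had folds of 9.61 and 7.63 in hESC, 3.51 and 2.95 in hDE and 2.82 in hAFE. None was called in the region in hPFE. The strongest hESC peaks began below the region. Just below it ended H3K4me2 peaks of 10.8-fold and 7.55-fold in hDE, 6.43-fold in hAFE and 7.36-fold in hPFE. The folds in the region thus depend on where peaks end. H3K27me3 was called in the region in hDE replicate 2 and both hPFE libraries.

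H3K4me2 stayed through every stage in 56 regions, 0.932% of the stem-cell-only regions against 1.5% of all distal regions. Of these 73.2% lay inside a protein-coding gene, against 57.6% of all stem-cell-only regions, and the median distance to a gene end was 9961 bp. The strongest was the widest of all stem-cell-only regions, 4583 bp inside TRPM3, a cation channel gene, at chr9:71118962-71123544. Its H3K4me2 fold was 6.36 and 6.18 in hESC, 5.26 and 6.66 in hDE, 6.31 in hAFE and 5.07 in hPFE. It overlaps a promoter window of TRPM3 in the RefSeq table, and in all 23 of 34961 such windows lay in stem-cell-only regions, since distance was counted from the outer ends of a gene and not from its inner starts. The next were a region 732707 bp from SORCS1, a sortilin-family receptor, and regions inside KLKB1 (plasma kallikrein), GPR19 (an orphan receptor) and PEBP4.

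Relative to genes, stem-cell-only regions lay much as other distal regions did. Inside a protein-coding gene lay 57.6% of them, against 46.2% of the definitive-endoderm-only regions, 74.5% of those of every stage and 57.1% of other distal regions. The median distance to the nearest end of a protein-coding gene was 48774 bp, against 53878, 17936 and 51475 bp in those sets. They grouped less than the definitive-endoderm-only regions, of which there were more. Joined over gaps of 12500 bp or less, 2645 (44.0%) stood alone, 812 pairs formed, and 459 clusters of at least 3 held 1738 regions (28.9%); in definitive endoderm 2130 such clusters held 43.6% and 29.4% stood alone. With regions chosen without replicate 1 or 2 of hESC H3K27ac, clusters numbered 2102 and 3348. Regions in clusters had H3K4me2 about as often as single ones: 52.5% and 48.4% against 50.1% and 48.2% in hESC.

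The largest cluster had 11 regions over 40372 bp inside HTR7, the gene of a serotonin receptor, at chr10:90783142-90823513. Between its regions lay H3K27ac peaks of both hDE libraries, with folds up to 6.75 in replicate 1 and 7.52 in replicate 2. The strongest peak of hESC replicate 1 there, 9.34-fold, overlapped hDE peaks and so was not in a stem-cell-only region. H3K4me2 overlapped 4 of the 11 in each hESC library, 0 and 1 in hDE and none in hAFE or hPFE, and H3K27me3 was called in none of the 7 libraries. The next 4 clusters had 9 regions each. One lay 116642 bp from MAP2, a neuronal microtubule protein, at chr2:209297146-209307405, with H3K4me2 in 8 and 7 regions in hESC and 0 and 1 in hDE. Another, at chr13:55035594-55048843, lay 48875 bp from LOC124903233 and nearest to the noncoding RNA LINC02335, with H3K4me2 in 9 and 7 regions in hESC and in none later. The remaining pair lay inside PTPRZ1, a receptor tyrosine phosphatase (3 and 2 regions with H3K4me2 in hESC), and inside CLYBL, a mitochondrial lyase (3 and 2). The MAP2 and LOC124903233 clusters were thus almost filled with H3K4me2 in stem cells, while those in PTPRZ1 and CLYBL were not.

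**Figure D3:**
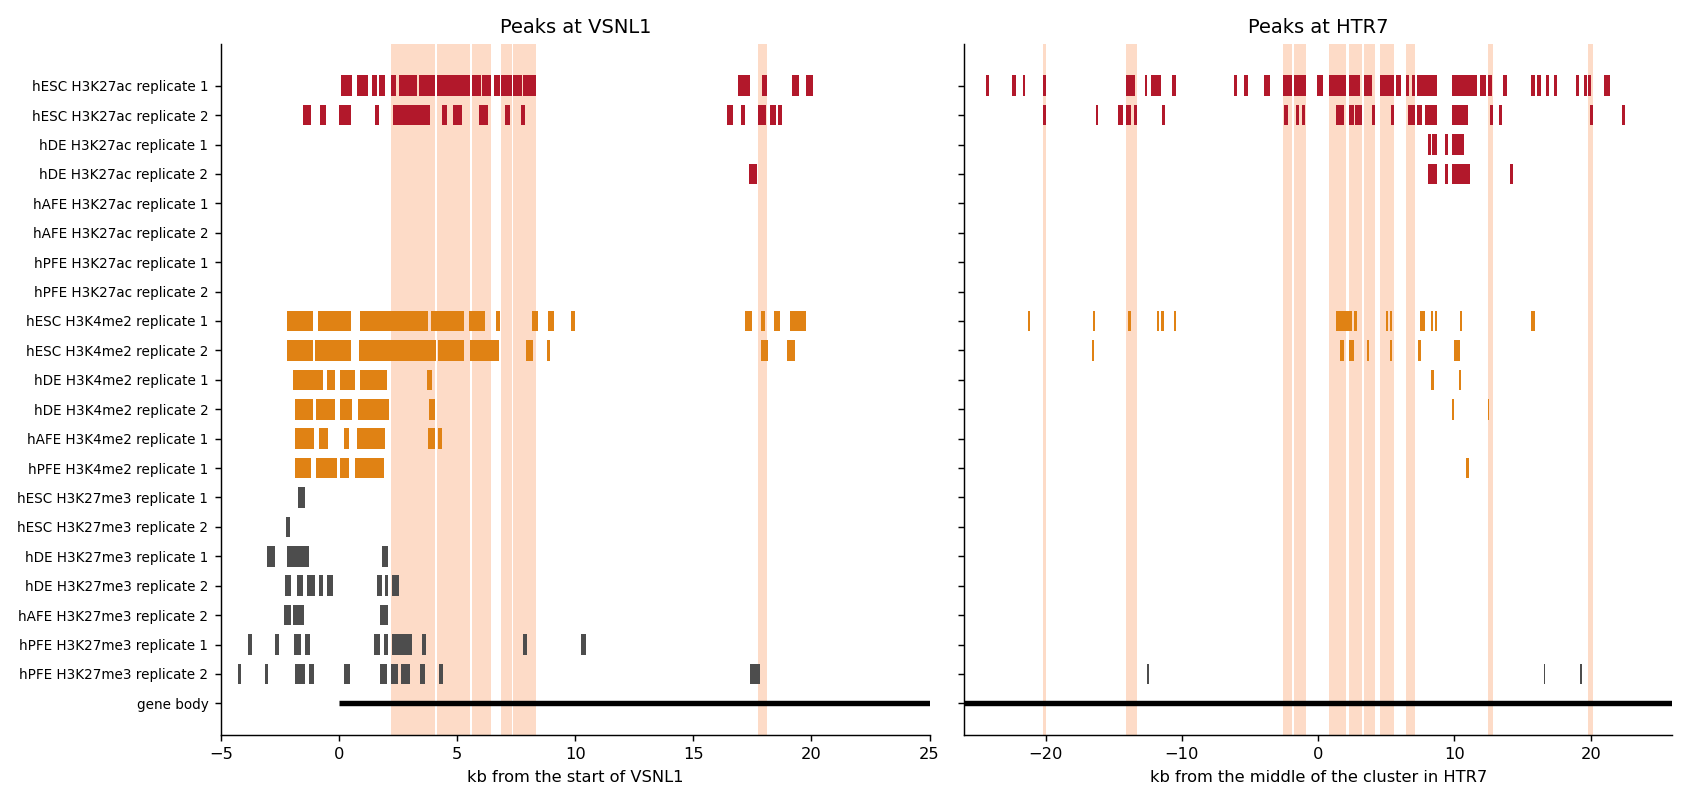
Peaks of the 21 libraries (rows, red H3K27ac, orange H3K4me2, grey H3K27me3) at the start of VSNL1 (left) and around the cluster in HTR7 (right), by distance in kb (x axis), with stem-cell-only regions shaded and the gene body as a black line. At VSNL1 the hESC rows hold 18 and 15 H3K27ac peaks and the later rows 1 in all, at HTR7 the hESC rows hold 34 and 22 and each hDE row 4, and 11 shaded regions make up the HTR7 cluster.

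The 10 strongest stem-cell-only regions all lay in pairs or larger clusters, while 44.0% of all stem-cell-only regions stood alone. First came a region of 947 bp 410389 bp from RORB, a nuclear receptor gene, at chr9:74086000-74086946, with H3K27ac folds of 11.6 and 9.69 in the hESC libraries. It stood in a cluster of 8 and had H3K4me2 in both hESC libraries (3.21-fold and 3.39-fold) and in replicate 2 of hDE (2.30-fold). The second, at chr13:55584039-55585214, lay 597320 bp from LOC124903233, with H3K27ac folds of 10.0 and 10.5, and the third inside PRKG1, a cGMP-dependent protein kinase, at chr10:52039598-52040618, with 10.9 and 8.94. Both had H3K4me2 in both hESC libraries and in none of the later ones. A pair nearest to IFT22 on chromosome 7 followed, the first at chr7:101294424-101296555 with H3K27ac folds of 14.9 and 8.40; it lay 3058 bp from LNCPRESS1, a long noncoding RNA described in human embryonic stem cells. RRAS2 (a Ras-related GTPase), JADE1 (of the HBO1 acetyltransferase complex), NPIPB5, FAM124A and LOC124901803 were nearest to the others. NPIPB5 belongs to a family of near-identical copies, so the placing of its reads is uncertain. H3K4me2 was called in both hESC libraries in 9 of the 10 and in replicate 1 alone at FAM124A. Of the later libraries only hDE had any, 1 library each at RORB and JADE1. H3K27me3 was called in a later library at RRAS2 alone, in 1 hPFE library.

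A stem-cell-only region had 1 of 2596 protein-coding genes as its nearest, 13% of 19974, and 742 genes had at least 3 (3.71%). LOC124903233, a predicted gene in a gene-poor part of chromosome 13, was nearest to 36, HS3ST5 (a heparan sulfate sulfotransferase) and COBL (an actin nucleator) to 21 each, CTNND2 (delta-catenin) to 20, ROBO1 (an axon guidance receptor) to 19, PRKG1 to 18, CHN1 (a Rac GTPase-activating protein), HTR7 and CADPS2 (a protein of vesicle release) to 17 each, and NAALADL2 to 16. These are mostly long genes or genes beside wide gaps, and the count was not divided by length. Definitive-endoderm-only regions numbered 44 at LOC124903233 and from 0 (CADPS2) to 14 (ROBO1) at the others. Of 193 genes with at least 6 stem-cell-only regions, 158 (81.9%) were also nearest to a definitive-endoderm-only one, against 27.1% of all genes. Counts and order of the stem-cell-only regions depended on the settings. At a deposited −log10 p of 5 or more, LOC124903233 was nearest to 16, PRKG1 to 12, CTNND2 to 10, COBL and CHN1 to 6 each, HS3ST5, HTR7, ROBO1 and CADPS2 to 5 each and NAALADL2 to 3. Without replicate 1 or 2 of hESC H3K27ac the 10 genes were nearest to 36 to 78 and 45 to 116 regions. Where genes of every kind could be nearest, LOC124903233 and COBL kept 4 each, HS3ST5 2 and CTNND2 none. All 17 regions of CHN1 and all 17 of CADPS2 lay inside the gene, and all 20 of CTNND2 lay outside, the nearest 419614 bp away. At the gene ends, HS3ST5, COBL and HTR7 had H3K27ac in both hESC libraries and in none of the 6 later ones, CHN1 and NAALADL2 had it in all 8, and ROBO1, PRKG1, CADPS2 and CTNND2 had it in neither hESC library. HTR7 ends had H3K27me3 in neither hESC library, in 1 of 2 hDE libraries and in all hAFE and hPFE libraries.

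Of the 7 gene lists, pluripotency genes had the highest share with a stem-cell-only region nearby. Of 55 such genes, 32 (58.2%) were the nearest gene of 1 or more, against 13% of all protein-coding genes, and 130 regions lay nearest to them. For definitive-endoderm-only regions the same list gave 27 genes (49.1%), against 27.1% of all genes. In this list 27 genes had more stem-cell-only than definitive-endoderm-only regions. A further 17 had fewer, among them JARID2 (11 against 17) and PODXL (3 against 11). Of definitive endoderm and primitive streak genes, 3 of 28 (10.7%) had a stem-cell-only region and 22 (78.6%) a definitive-endoderm-only one. FGF, Nodal, BMP and WNT signalling genes had them at 20 of 46 (43.5%, and 69.6% with definitive-endoderm-only regions), neural genes at 13 of 38 (34.2% and 57.9%), chromatin and DNA methylation genes at 10 of 34 (29.4% and 38.2%), foregut and pharyngeal genes at 10 of 40 (25% and 42.5%) and housekeeping genes at 2 of 24 (8.33% and 16.7%). The median gene length was 18.5 kb in the pluripotency list and 24.2 kb over all genes. A longer gene can hold more regions, and the lists were not matched for length.

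**Figure D4:**
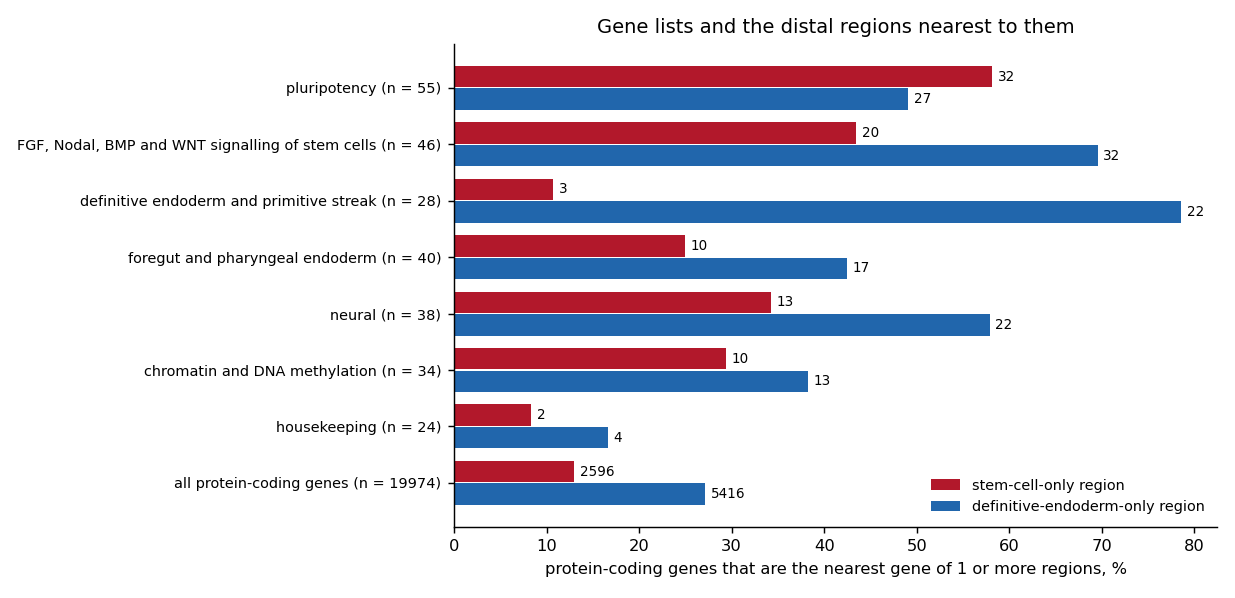
Share of protein-coding genes (x axis, %) that are the nearest gene of at least 1 stem-cell-only region (red, upper bar) or definitive-endoderm-only region (blue, lower bar), by gene list (rows); numbers beside bars are genes. Pluripotency genes stand at 58.2% and 49.1%, endoderm and streak genes at 10.7% and 78.6%, and all genes at 13% and 27.1%.

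Among transcription factors of pluripotency, SOX2, which is also a foregut factor, had 6 stem-cell-only regions, the nearest 3905 bp below it at chr3:181707072-181708020 with H3K27ac folds of 6.66 and 3.18 in hESC, and the others from 4899 bp to 427947 bp away. SALL1 (a zinc finger factor) had 7, all on its higher-coordinate side, and FOXO1 (a forkhead factor) 6. FOXD3 had 4 between 16361 and 27772 bp from the gene, and the farthest kept H3K4me2 in both hDE libraries (3.40-fold and 3.75-fold). PRDM14, a repressor of differentiation, had 4, of which 1 had H3K4me2 in all 6 libraries and H3K27me3 in all 5 later ones. KLF4, ZFP42 and OTX2 (a factor of both stem cells and head tissue) had 3, 3 and 1, and ZSCAN10 had 2. NANOG had 1 of 210 bp, 2578 bp below the gene, with H3K27ac folds of 2.91 and 2.45 and no H3K4me2 in any library, and POU5F1 had none. The core factors thus differed widely in how many they had.

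RNA-binding, chromatin and surface genes of stem cells made up most of the rest. TRIM71, a regulator of microRNA targets, had 9, and LIN28B and LIN28A, which block maturation of let-7 microRNAs, had 4 and 1. JARID2, a cofactor of Polycomb repressive complex 2, had 11, of which 1 lay inside the gene, and PHC1 (of Polycomb repressive complex 1), DNMT3A and DNMT3B (the DNA methyltransferases that set new marks) had 3, 3 and 2. TERF1, a telomere protein, had 6, and DPPA4, a chromatin protein of early embryos, had 5, of which the widest, 2972 bp at chr3:109352783-109355754, had H3K27ac folds of 5.35 and 5.94 and H3K4me2 of 7.42 and 6.66 in hESC and 5.68 and 4.59 in hDE. The membrane proteins CD9, CDH1 (E-cadherin), PODXL and THY1 had 5, 4, 3 and 2. FGF2 had 4, SFRP2 3 and APELA, a peptide hormone of stem cells, 2. VSNL1 had 6, L1TD1 and USP44 (a deubiquitinase) 3 each, and POLR3G, a subunit of RNA polymerase III, 2. The stronger region of POLR3G, at chr5:90477376-90478536, had H3K27ac folds of 9.81 and 6.92 and H3K4me2 folds of 8.26 and 6.06 in hESC, with no H3K4me2 later. Of the 130 regions, 57 lay inside their gene and 47 were in the strongest quartile; 64 had H3K4me2 in both hESC libraries, against 40.0% of all stem-cell-only regions. Of these 64, 45 had it in no hDE library, a lower share than the 81.8% over all stem-cell-only regions with H3K4me2 in both hESC libraries; this difference was not tested.

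In the other lists, genes with many stem-cell-only regions were the receptors FGFR1 and BMPR1A with 5 each and INHBA, an activin subunit, with 4, among signalling genes, where SPRY1 and ID2 also had 4. ARID1B, a subunit of the BAF remodelling complex, had 6 and the demethylase gene KDM4C 4. Among neural genes, the synaptic adhesion gene NLGN1 and DLG2, a synaptic scaffold, had 7 each, all inside genes of 898421 and 2173362 bp. Among foregut genes, after SOX2, IRX2 and EYA1 had 4 each. Among endoderm and streak genes, SP8 had 6, and OTX2 and EOMES 1 each. TFRC and YWHAZ, with 2 and 1, were the housekeeping genes with any. Among the genes named here with at least 4, definitive-endoderm-only regions were more numerous at DLG2 (22), ID2 (14), KDM4C (11) and ARID1B (7). They were equal in number at SPRY1 (4) and fewer at the others.

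At the ends of the nearest genes, H3K27ac was lost along with the distal regions in a small part of genes. It was gained in more genes in hDE and hPFE, and in fewer in hAFE. Of genes with at least 1 stem-cell-only region, 51.4% had H3K27ac at an end in both hESC libraries. The share was 60.6% in hDE, 38.5% in hAFE and 55.4% in hPFE. For all genes the shares were 42.98%, 54.1%, 34.3% and 50.3% in the same order. These ends lie over 2 kb from every stem-cell-only region, so their peaks are other peaks, but the libraries are those that chose the regions, and the counts are given without a test. Of 1334 genes with at least 1 stem-cell-only region and H3K27ac at an end in both hESC libraries, 67 (5.02%) had it in no hDE library, against 2.76% of all such genes. With at least 3 regions it was 34 of 415 (8.19%), with at least 6 it was 14 of 114 (12.3%), and with none it was 170 of 7250 (2.34%). The 67 genes became 313 with regions chosen without replicate 1 of hESC H3K27ac and 249 without replicate 2. From hESC to hAFE the shares were 22.8% with at least 6 regions, 17.3% with at least 3, 11.6% with at least 1 and 6.29% with none (background 7.12%), and from hESC to hPFE they were 16.7%, 11.1%, 7.05% and 3.20% (background 3.8%). Of the genes with at least 1 region, 922 had H3K27ac at an end in neither hESC library. Both hDE libraries had it in 165 of these (17.9%, background 14.7%), against 67 losses. In hAFE 45 gained it (4.88%, background 3.06%), against 155 losses. In hPFE 130 gained it (14.1%, background 11.5%), against 94 losses. With at least 6 regions, 7 of 54 (12.96%) gained it in hDE, against 14 losses. H3K27me3, which the rule did not use, was unmarked in hESC and marked in both hPFE libraries at the ends of 13 of 143 genes (9.09%) with at least 6, 34 of 535 (6.36%) with at least 3, and 159 of 12701 (1.25%) with none, against 1.56% of all genes. For hAFE it was 14 (9.79%), 38 (7.10%) and 223 (1.76%), against 2.14%, and for both hDE libraries 7 (4.90%), 17 (3.18%) and 92 (0.724%), against 0.872%. H3K27me3 marked in both hESC libraries was absent from hDE in 32.5%, 26.9% and 25.6% of genes with at least 6, 3 and 1 regions. With no region it was 21.7% (background 22.2%). For hAFE the same shares were 22.5%, 32.4%, 33.7% and 33.4% (background 33.4%), and for hPFE 22.5%, 27.6%, 29.2% and 32.9% (background 32.3%). H3K4me2 at gene ends did not follow: it was lost from both hESC to both hDE libraries at 3 of 170 genes (1.76%) with at least 6 regions, 12 of 629 (1.91%) with at least 3 and 362 of 12341 (2.93%) with none, against 2.82% of all genes. Gene length went along with these tiers, with medians of 295 kb, 155 kb, 90.5 kb and 20.6 kb in genes with at least 6, at least 3, at least 1 and no region, and its part was not tested.

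**Figure D5:**
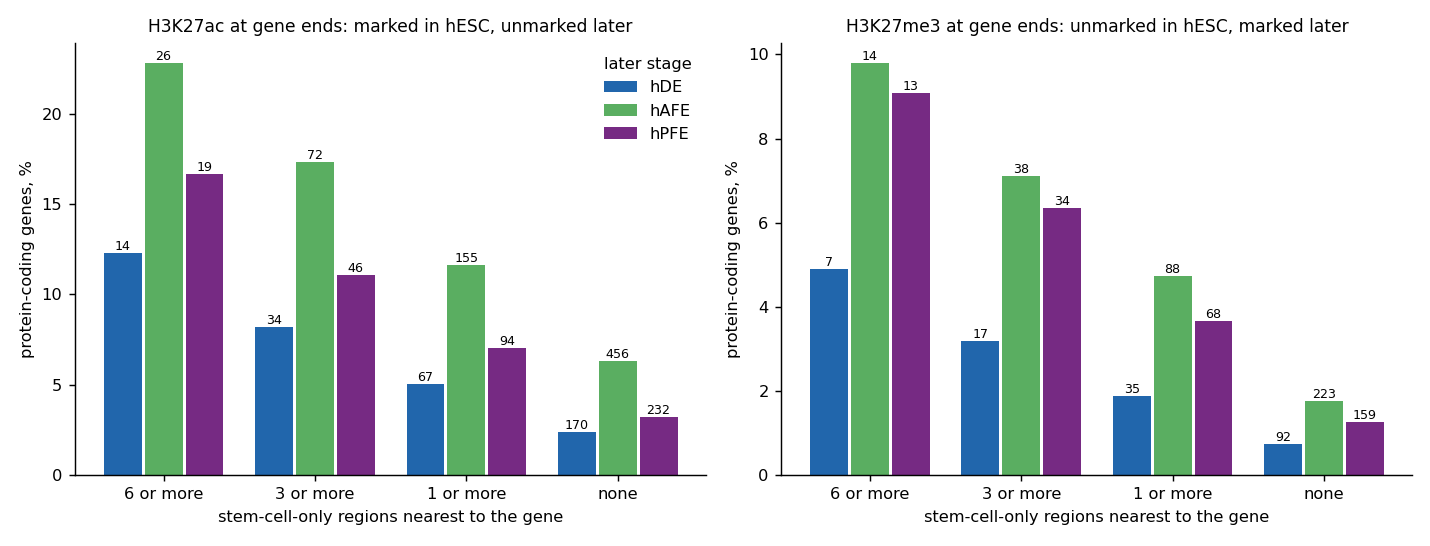
Protein-coding genes (y axis, %) whose ends had H3K27ac in both hESC libraries and none in the later stage (left, of genes with H3K27ac in hESC) or H3K27me3 in neither hESC library and in every library of the later stage (right, of genes without it in hESC), by the number of stem-cell-only regions nearest to the gene (x axis; the first 3 tiers are nested). Numbers over bars are genes; the share for hDE on the left is 12.3% with at least 6 regions and 2.34% with none.

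Of the 27 pluripotency genes with a stem-cell-only region and H3K27ac at an end in both hESC libraries, 6 had it in no hDE library: APELA, FGF2, FOXD3, SFRP2, SOX2 and VSNL1. In hAFE 14 of the 27 had none and in hPFE 8. SOX2 ends had H3K27ac again in both hAFE and both hPFE libraries, while FOXD3, SFRP2 and VSNL1 had it in none of the 6 later ones. In hDE, 18 of the 27 kept H3K27ac at an end in both libraries, among them NANOG, DPPA4, PRDM14, SALL1, TRIM71 and DNMT3B, while having stem-cell-only regions nearby. Of these, DPPA4 and PRDM14 had it in no hAFE or hPFE library and NANOG in no hAFE library. SALL1, TRIM71 and DNMT3B had it in all hAFE and hPFE libraries. Of the 27 genes, 10 had it in both hAFE and 13 in both hPFE libraries. DNMT3A and LIN28B had distal stem-cell-only regions and no H3K27ac at an end in either hESC library. Only the outer ends of a gene were counted, so H3K27ac at an inner start would be missed.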

How the data were processed

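Peak lists of chromatin immunoprecipitation sequencing were used from 21 of 25 samples, and the 4 inputs served as the authors' controls. Per the deposited file names, the authors called peaks per library on sorted alignments without duplicates, against the input of the stage and kept peaks at p of 0.01. Coordinates are on hg38, which the submitters' processing notes name. The aligner and peak caller were not given in the sources used. Each deposited peak has a score, a fold enrichment (ratio over input), a −log10 p-value and a −log10 q-value, all the authors' own and used within 1 list. A region's fold is the highest of the peaks that overlap it, which can reach past it. Folds of different lists are given side by side, and differences between them were not tested.

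Peaks were merged and overlapped (1 bp or more) with Python 3.11.15, numpy 2.4.6, pandas 2.3.3 and SciPy 1.17.1. Gene positions and promoter sequences came from RefSeq tables of GRCh38.p14 (59098 genes on chromosomes 1 to 22 and X, without strand). A region's nearest gene is the nearest protein-coding body. A gene end is marked by a peak within 1 kb of either annotated end. A stage counts as marked when every library has a peak and as unmarked when none has. The location of other distal regions was taken from every 10th. Shares are compared over libraries by exact permutation, adjusted over 8 tests; regions are not replicates. Intervals are exact (Clopper-Pearson, 95%). Nothing in the labels says that replicates came from different cultures, so a p-value reflects the spread among these libraries, which may be technical. On simulated lists, where each planted region had overlapping peaks in both hESC lists, the rule recovered 100% of 500 planted regions. That result was fixed by the setting. It checks the code and cannot tell how well the rule finds regions in real lists. The set of regions, the gene lists and the tests were chosen with earlier results of these data known. Named were the 10 strongest regions, the 10 genes with most regions, the 5 largest clusters, list genes, and the 5 strongest regions each that gained H3K27me3 or kept H3K4me2; FOXB1 and the promoter windows shown were picked after their values were seen. A planned motif search in the regions themselves was not run, as no genome was used here. TDGF1, ESRG and LINC-ROR were not matched to a protein-coding symbol. A few list genes are not reported here.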

Additional observations from a re-analysis of the deposited data

Results flagged for a closer look

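In 4 comparisons the differences changed sides between stem cells and later stages, with both hESC libraries on one side and every later library on the other. They were picked for this full separation, which by itself gives the smallest possible p. The p-values below were thus fixed by the choice and are no evidence of a difference. The H3K4me2 share of stem-cell-only regions minus that of all other distal regions differed by -45.7 points, later minus hESC libraries (exact permutation p = 0.133, two-sided, the smallest possible). For H3K27me3 the change ran the other way. Against all other distal regions it was 1.61 points, against definitive-endoderm-only regions 2.45 points and against regions of every stage 2.07 points, later minus hESC (exact permutation p = 0.0952 for each, the smallest possible). The H3K27me3 share of stem-cell-only regions minus that of other distal regions was -0.703 and -1.12 points in the hESC libraries and 0.213 to 1.41 points in the later ones. The hESC H3K27me3 libraries are the re-analysed ones, so stage and origin cannot be told apart here.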

How the results depend on the processing

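The H3K4me2 share stayed lower, and the H3K27me3 share higher, in later libraries than in hESC under every alternative run (differences of -60.7 to -14.3 and 0.425 to 2.58 points). With replicate numbers as a block (pairing hDE, and for H3K27me3 also hPFE, with hESC), they were -45.6 and 1.40 points; 2 pairs allow no exact p below 0.5. The number of stem-cell-only regions rests on both hESC H3K27ac lists. Without replicate 1 it was 32566 and without replicate 2 it was 37149, and leaving out each of the 8 libraries gave 6030 to 37149. It was 2270 at −log10 p of 5 or more, 2572 at −log10 q of 2 or more, 2578 with lists of equal length, 3997 over 10 kb from gene ends and 2680 among regions of 500 bp or more. In the same order, clusters numbered 126, 136, 140, 293 and 151, with 65 when peaks within 500 bp were merged and 462 to 3348 with a library left out (2102 and 3348 without hESC replicate 1 and 2). Genes whose ends lost H3K27ac in hDE numbered 33 at the p and 29 at the q limit, and 67 to 313 with a library left out (313 and 249 without hESC replicate 1 and 2). Pluripotency genes with a region numbered 19 over 10 kb and 32 to 45 with a library left out. The share without H3K4me2 in hDE was 83.7% (p limit), 84.5% (q limit), 66.3% (equal lists), 83.9% (over 5 kb), 84.8% (over 10 kb), 88.9% (200 bp of overlap), 71.6% (1 kb flanks) and 79.7% to 88.1% with a library left out. The differences from other sets turned with the settings. For H3K27me3 minus other distal regions they were -0.0992 (p limit), -0.0423 (q limit), -0.174 (equal lists), -0.0221 (500 bp or more) and -0.118 (2 or more lists) points, and -0.263 to 0.465 with a library left out. For H3K27me3 minus regions of every stage they were -0.0725 (500 bp merged), 0.895 (300 to 700 bp, exact permutation p = 0.0313 unadjusted) and -0.0982 to 0.674, and minus definitive-endoderm-only regions -0.594 to 0.209. For H3K4me2 minus other distal regions they were -4.21 (500 bp or more), -2.53 (2 or more lists) and -2.42 to 15.5, minus definitive-endoderm-only regions -8.80 to 13.02, and minus regions of every stage -82.6 to -67.3, where leaving out an H3K4me2 library ended the unadjusted call (exact permutation p = 0.0625). The causes were not tested. The restrictions to 300 to 700 bp and to 2 or more lists were chosen after seeing the data.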

Other observations

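On chromosome X, stem-cell-only regions were 3.95% of distal H3K27ac regions, against 2.28% over all chromosomes, and definitive-endoderm-only regions were 19.5% of them, against 7.77%. The 160 stem-cell-only regions of chromosome X had H3K4me2 in 41.3% and 30.6% in the hESC libraries, against 53.7% and 51.1% of the 5847 on autosomes.

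Counting every kind of gene, 1506 stem-cell-only regions (25.1%) had a long noncoding RNA as their nearest gene. LINC02335 on chromosome 13 was nearest to 22 and PVT1, the gene beside MYC, to 13. A microRNA gene was nearest to 21, among them MIR1265, MIR4447 and MIR3937 at 6607, 6714 and 7511 bp.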
